A study of Mus musculus with 6 samples.

Results

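Chemokines are small secreted proteins that guide the movement of leukocytes and other cells through G protein-coupled receptors. Homeostatic chemokines are made without infection and place cells in marrow, lymphoid tissue and mucosa, whereas inflammatory chemokines are induced by injury or microbes and recruit neutrophils, monocytes and effector lymphocytes. Atypical chemokine receptors (Ackr genes) bind chemokines without classical G protein signalling, and they remove or transport their ligands. Genes of this family were taken by symbol (Ccl, Cxcl, Cx3cl and Xcl ligands, and Ccr, Cxcr, Cx3cr, Xcr and Ackr receptors), which gave 61 of the 41709 genes listed. They were 39 ligands, of which 15 are homeostatic or constitutive and 24 inflammatory, and 22 receptors, of which 18 are conventional and 4 atypical.

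The RNA came from the rear nasal septum of mice, mucosa and bone together, reared from week 4 to week 8 of age on a control diet with sufficient zinc or on a zinc-deficient one. Each diet had 3 libraries, numbered 4, 5 and 6. The labels name no strain, sex or agent besides the diet and do not say whether each library came from 1 animal, so a p-value here measures the spread between these libraries. The only comparison is zinc-deficient against control, and the series asks about the renewal of the olfactory epithelium under zinc deficiency.

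Libraries held between 11731999 and 18727863 counts, and the family took 4570 to 7159 of them, or 0.0344% to 0.0417%. Levels in a library are given as CPM (counts scaled to TMM-adjusted library size), and levels are compared between genes only as deposited RPKM (reads scaled to gene length and library size). Markers of mature olfactory neurons, such as Omp and Adcy3, summed to 5318 to 9037 CPM, osteoblast markers such as Col1a1 and Bglap to 4438 to 14049 CPM, and nasal gland markers such as Obp2a and Obp1a to 9089 to 36876 CPM, so the labelled mucosa and bone were both seen. A test was run on genes that passed a filter on low counts. It was passed by 37 members, 20 ligands and 17 receptors, and 24 members are given below as counts alone.

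One ligand was encoded by several near-identical genes, and its sequences are shown because they bear on how far its reads can be assigned. Ccl21 draws Ccr7-bearing dendritic cells and T cells to lymphatic vessels and lymphoid tissue. The table listed 5 copies on chromosome 4, namely Ccl21a, Ccl21b, Ccl21d, Gm13304 and Gm10591, and the last pair are unnamed gene models added after their values were seen. In GENCODE M21 on GRCm38 each copy has a coding sequence of 402 bases. Ccl21b, Gm13304 and Gm10591 match Ccl21d at every base, and Ccl21a differs from Ccl21d at 2 bases (99.5% identity), A84T and T194C, with the Ccl21d base first and positions counted from the first base of the start codon. Positions 71 to 210 of the coding sequences of Ccl21a (minus strand, chr4:42772860-42773993) and Ccl21d (plus strand, chr4:41903610-41904743), which hold both differences, follow 5′ to 3′, with the differing bases in capitals.
Ccl21a: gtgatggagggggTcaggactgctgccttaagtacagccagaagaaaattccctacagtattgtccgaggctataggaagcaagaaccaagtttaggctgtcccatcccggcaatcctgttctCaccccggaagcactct
Ccl21d: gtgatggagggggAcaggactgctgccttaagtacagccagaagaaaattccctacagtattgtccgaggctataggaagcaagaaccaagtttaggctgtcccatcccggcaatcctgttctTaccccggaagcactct

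Of the ligands, the homeostatic genes had most of the RNA per gene length. Ccl21a was listed highest, with a mean of 19.9 RPKM over the 6 libraries and a range from 12.9 to 29.8 RPKM. It was followed by Cxcl17, a mucosal chemokine, at 6.92 RPKM, by Cxcl12, which retains blood progenitors in marrow, at 5.64 RPKM, and by Cx3cl1 (fractalkine), which is made as a membrane-bound protein, at 5.40 RPKM. Ccl27a at 4.69, Cxcl5 at 2.48, Ccl21d at 2.09 and Cxcl16 at 1.99 RPKM completed the upper 8. Cxcl17, Cxcl12, Cx3cl1 and Ccl27a had overlapping RPKM ranges, and their order is not resolved beyond the spread. Ligand CPM summed to 329, 275 and 324 in control libraries 4, 5 and 6 and to 296, 276 and 275 in zinc-deficient libraries 4, 5 and 6, so the groups overlapped.

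Receptors were listed lower. Cxcr4, the receptor of Cxcl12, led with a mean of 4.87 RPKM and a range from 2.94 to 8.47 RPKM. The atypical receptors Ackr3, Ackr1 and Ackr4 came next at 2.15, 1.51 and 0.978 RPKM, and Ccr10, a receptor for Ccl27 and Ccl28, stood at 0.970 RPKM. Cx3cr1, the fractalkine receptor of macrophages and monocytes, had 0.692, Cxcr2, a receptor for neutrophil-attracting chemokines, 0.607, and Ccr2, the monocyte receptor for Ccl2, 0.583 RPKM. Receptor CPM summed to 94.4, 88.8 and 76.1 in controls and 68.9, 98.3 and 99.9 in zinc-deficient libraries, which overlap.

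**Figure D1:**
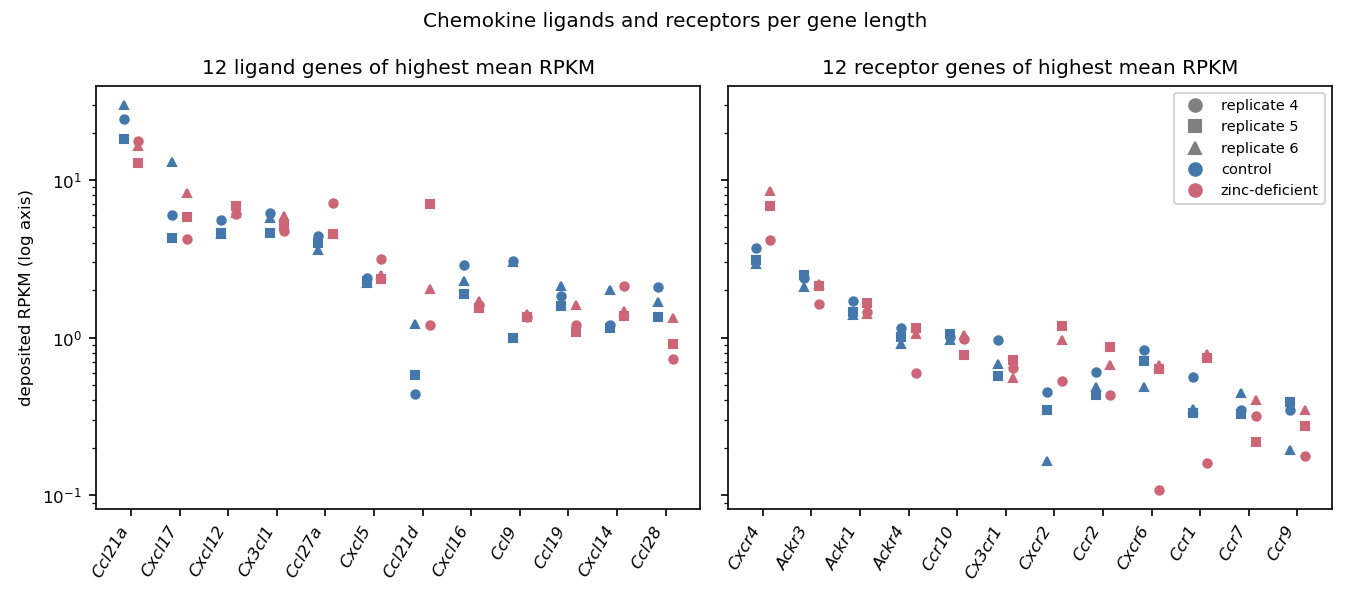
Deposited RPKM (log axis) of the 12 ligand genes and the 12 receptor genes of highest mean RPKM, one point per library, with control libraries in blue, zinc-deficient libraries in red and marker shape for the replicate number. Ccl21a leads the ligands at a mean of 19.9 RPKM and Cxcr4 the receptors at 4.87 RPKM.

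With the diet as the contrast, no member passed edgeR's quasi-likelihood test at a Benjamini-Hochberg adjusted p of 0.05 (0 of 37), and 0.119% of the 18427 genes tested passed it. At an unadjusted p under 0.05 there were 8 members, against 12.9% of all genes: Cxcr4, Cxcr2 and Ccl21d on the higher side in zinc deficiency, and Ccl28, Ccl21a, Cxcl16, Ccl9 and Ccr4 on the lower side. Over all genes, 6.4% were at that level on the higher side and 6.46% on the lower. DESeq2 called 4 members at an adjusted p of 0.05 (Ccl21a, Ccl21d, Ccl28 and Cxcr4), against 2.03% of the genes it tested, edgeR without the low-count filter called Cxcr4 alone (0.615% of genes), and limma-voom called 0 (0.0326% of genes). The authors' deposited table holds the same 4 genes at an FDR under 0.05, with values of 0.044 for Ccl21a, 0.020 for Ccl21d, 0.029 for Ccl28 and 0.027 for Cxcr4, against 2.04% of genes with an FDR there.

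Most tested members lay below 0 without passing the test. Log2 fold changes (zinc-deficient over control) were below 0 for 26 of the 37 members tested, 14 of 20 ligands and 12 of 17 receptors, where 50.3% of all genes were below 0. The median was −0.54 for ligands and −0.23 for receptors, against −0.0021 over all genes tested. The ligand median was −0.30 over genes of at least 100 counts and −0.29 without control 6, where the receptor median was −0.24 and −0.23, so ligands and receptors were then closer. The 12 homeostatic ligands tested had a median of −0.30, the 8 inflammatory ligands −0.73, the 13 conventional receptors −0.20 and the 4 atypical receptors −0.30. The inflammatory median rests partly on low counts, as Ccl5, Ccl17, Cxcl10 and Cxcl9 had 57, 68, 83 and 89 counts over all libraries. The other inflammatory ligands tested, Ccl9, Ccl22, Cxcl5 and Ccl6, were at −0.88, −0.84, 0.11 and 0.68. CPM ranges of the diets did not overlap for 11 of the 37, 2 higher and 9 lower in zinc deficiency, where 18.9% of all genes were separate, 9.56% higher and 9.31% lower. These counts describe the members, and no test of the list was run.

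**Figure D2:**
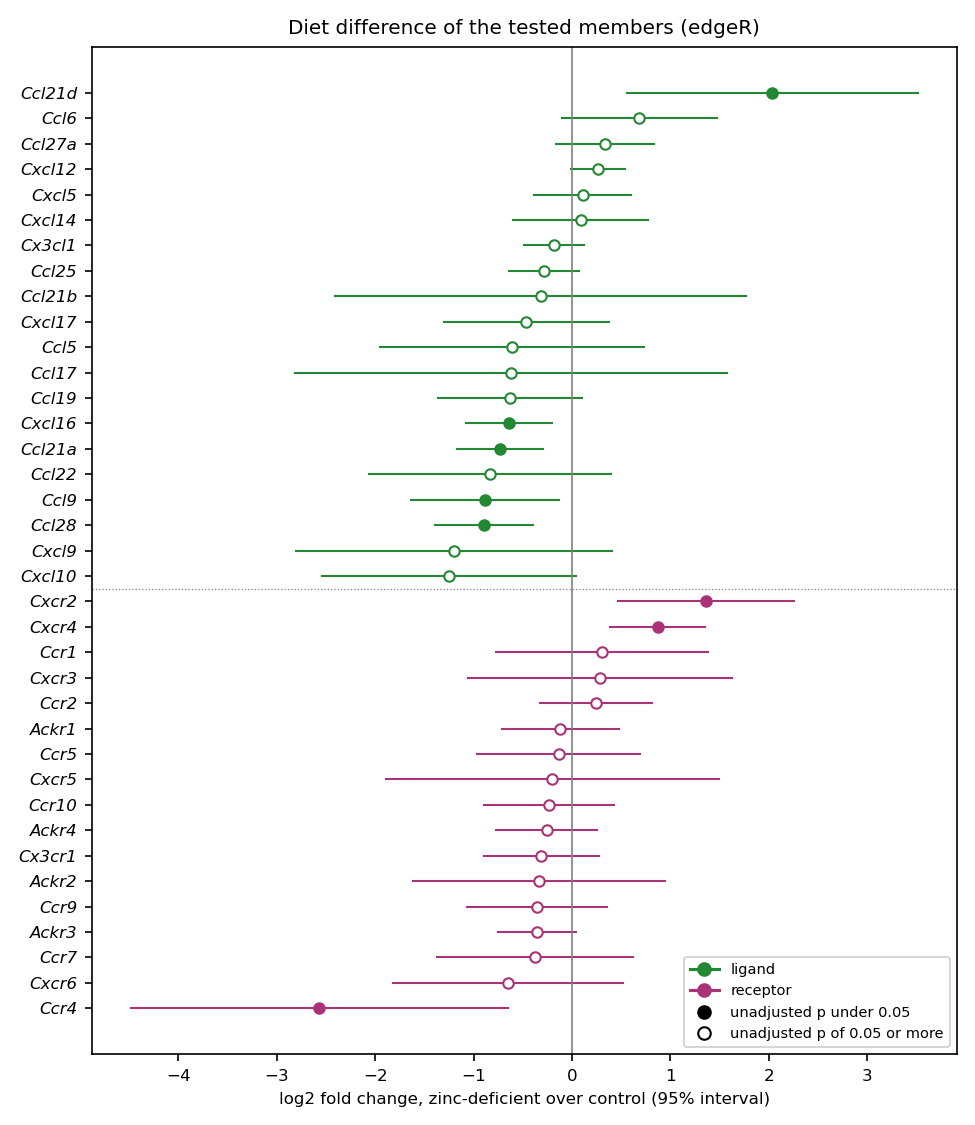
Log2 fold change (zinc-deficient over control) with its 95% interval for the 20 ligands (green, above the dotted line) and 17 receptors (purple, below it) that were tested with edgeR. Filled points have an unadjusted p under 0.05, 3 to the right of 0 and 5 to the left, and no member passed the adjusted test.

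Cxcl12 and its receptors gave values on both sides of 0. Cxcl12 is made by marrow stroma and vessel-lining cells, Cxcr4 is the signalling receptor that holds blood cells in marrow, and Ackr3 takes up Cxcl12 without classical signalling. Cxcl12 stood at 93.0, 82.4 and 77.2 CPM in controls and 105, 107 and 92.8 CPM in zinc-deficient libraries (log2 fold change 0.27, standard error 0.13, adjusted p = 0.397). The lowest zinc-deficient library lay just under the highest control, so the groups overlapped.

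Cxcr4 (chr1:128515936-128520030 in the deposited table) had 13.7, 12.2 and 11.1 CPM in controls and 15.8, 23.3 and 28.3 CPM in zinc deficiency. That is 12.3 ± 1.32 against 22.5 ± 6.27 CPM (SD, n = 3), with each zinc-deficient library above each control and library 4 nearest to them. The log2 fold change was 0.87 with a standard error of 0.22 (adjusted p = 0.181, and 0.0283 in DESeq2). Ackr3 had 16.3, 18.4 and 14.7 CPM in controls and 11.6, 13.4 and 13.5 CPM in zinc deficiency, each below each control, with a log2 fold change of −0.36 and an adjusted p of 0.437. In RPKM, Cxcr4 was 1.56, 1.23 and 1.40 times Ackr3 in controls and 2.54, 3.22 and 3.89 times in zinc deficiency, and its part of summed receptor RPKM was 23.3% to 24.6% against 35.1% to 43.2%. Both measures were separate between the diets and rest on the Cxcr4 values just given.

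Cxcr2, the receptor through which neutrophils leave the marrow and enter tissue, had 2.80, 2.31 and 1.05 CPM in controls and 3.39, 6.82 and 5.45 CPM in zinc deficiency. The zinc-deficient libraries all lay above the controls, library 4 by the smallest margin. The log2 fold change was 1.36 with a standard error of 0.41 (adjusted p = 0.221). Its ligand Cxcl5, an epithelial neutrophil attractant, showed no such separation, with 9.10, 9.38 and 8.57 CPM in controls and 12.4, 8.26 and 8.59 CPM in zinc deficiency (log2 fold change 0.11, adjusted p = 0.878, and −0.089 without zinc-deficient 4). The other Cxcr2 ligands of this group, Cxcl1 and Cxcl2, were too low to test, with 22 and 2 counts over the 3 controls and 14 and 8 over the 3 zinc-deficient libraries.

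Blood cells of the marrow carry Cxcr4, and neutrophils carry Cxcr2, so markers of these cells were read in the same libraries. Mature neutrophil markers (S100a9 and S100a8 the most abundant per length) were above 0 in log2 fold change for 9 of 10 tested. Their median was 0.86, and their sums, 129 to 296 CPM in controls and 221 to 318 CPM in zinc deficiency, overlapped. Mmp9 and Cd177 held much of these sums, at means of 69.6 and 57.1 CPM in controls and 73.6 and 32.2 CPM in zinc deficiency. Cd177 was the one marker of the list below 0, at −0.83. Developing B cell markers (led by Ebf1 and Vpreb3) were above 0 for 11 of 12, 1 of them past the adjusted test. Their median was 1.60, while their sums, 264 to 403 against 345 to 469 CPM, overlapped. Ebf1 and Cecr2 held most of these sums, at means of 180 and 109 CPM in controls and 210 and 133 CPM in zinc deficiency. The log2 fold changes of Ebf1 and Cecr2 were 0.22 and 0.29. Neutrophil precursor markers (led by Ltf and Ngp) were above 0 for 11 of 12, with a median of 1.78, while their sums, 397 to 2410 against 631 to 1432 CPM, overlapped. Ltf, which nasal glands also make, held most of these sums and was the one marker of the list below 0, at −1.01. Leaving Ltf out was a step added after seeing the data, and no marker was left out of the other lists. Without Ltf the sums were 11.0 to 171 CPM in controls and 235 to 350 CPM in zinc deficiency and did not overlap. Erythroid markers (led by Hba-a2 and Hbb-bs) were above 0 for 10 of 10. Their sums, 494 to 1810 against 1515 to 4264 CPM, overlapped. None of the markers of these 4 lists was at 0 counts in all libraries. Their part in the Cxcr4 and Cxcr2 values was not tested. In bulk tissue, more cells of a type and more RNA per cell cannot be told apart.

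**Figure D3:**
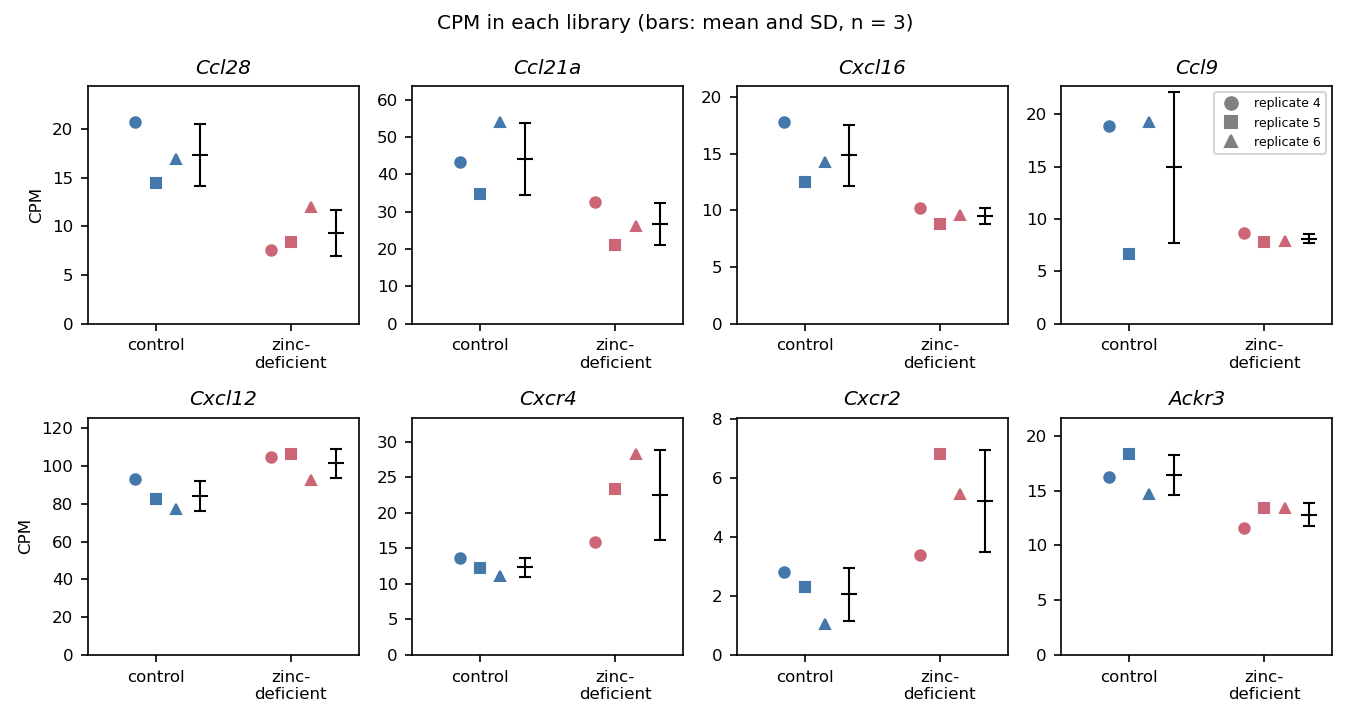
CPM in each library for 4 ligands of lower mean in zinc deficiency (Ccl28, Ccl21a, Cxcl16, Ccl9) and for Cxcl12, Cxcr4, Cxcr2 and Ackr3, with the mean and SD (n = 3) as bars beside the points and axes that start at 0. Cxcr4 and Cxcr2 lie above the controls in each zinc-deficient library, Ccl28, Ccl21a, Cxcl16 and Ackr3 lie below, and Ccl9 and Cxcl12 overlap.

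Ccl28, a mucosal epithelial chemokine that attracts Ccr10-bearing antibody-secreting cells (chr13:120085355-120115895 in the deposited table), had 20.7, 14.4 and 16.9 CPM in controls and 7.51, 8.38 and 11.9 CPM in zinc deficiency. The means were 17.3 ± 3.17 and 9.28 ± 2.35 CPM (SD, n = 3), and the diets did not overlap. The log2 fold change was −0.90 with a standard error of 0.23 (adjusted p = 0.181, and 0.0353 in DESeq2). Nasal gland markers overlapped between the diets, at 9127 to 36876 CPM in controls and 9089 to 15603 CPM in zinc deficiency, and their part in the Ccl28 values was not tested. Ccr10 gave 3.58, 3.98 and 3.47 CPM in controls and 3.54, 2.54 and 3.30 CPM in zinc deficiency, and these overlapped (log2 fold change −0.23, adjusted p = 0.785, and −0.10 without zinc-deficient 5). Ccr10 lies within the span of Cntnap1, and reads of the pair cannot be told apart here because the counting is not stated to use strand. Ccl27a, the other ligand of Ccr10, had 21.4, 20.8 and 17.7 CPM in controls and 35.5, 20.3 and 19.9 CPM in zinc deficiency, where library 4 stood apart from the rest (log2 fold change 0.33, adjusted p = 0.568). Without that library the log2 fold change was 0.017.

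Ccl21a had 43.4, 34.8 and 54.0 CPM in controls and 32.5, 21.2 and 26.2 CPM in zinc deficiency. Each zinc-deficient library was below each control, the closest pair being control 5 and zinc-deficient 4. The log2 fold change was −0.73 with a standard error of 0.20 (adjusted p = 0.194, and 0.0433 in DESeq2). Ccl21d went to the other side, with 0.778, 1.11 and 2.22 CPM in controls and 2.21, 11.6 and 3.25 CPM in zinc deficiency (log2 fold change 2.03, standard error 0.66, adjusted p = 0.270). Most of that difference sat in zinc-deficient library 5, and without this library the log2 fold change was 0.98 (adjusted p = 0.556). The whole Ccl21d span is shared with Gm13307 on the other strand, which had 84 counts over all libraries. Ccl21a and Ccl19 lie wholly within the span of 4930578G10Rik on the other strand, which had 28 counts over all libraries.

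The copies of Ccl21 were assigned unevenly among the libraries. In zinc-deficient library 5, Ccl21b, Gm13304 and Gm10591 were all at 0 counts while Ccl21d held 201, where the other 5 libraries gave Ccl21d between 10 and 62 counts and Gm13304 between 102 and 351. The coding sequences of these 4 copies are the same, so values for each copy of this group are uncertain. Ccl21a differs from them at 2 of 402 coding bases. Coding reads that cover neither base do not separate it from them, so its own values carry this limit too. Summed over the 5 copies, the libraries held 58.4, 51.0 and 84.5 CPM in controls and 48.6, 32.8 and 39.2 CPM in zinc deficiency, 64.6 ± 17.6 against 40.2 ± 7.97 CPM (SD, n = 3), and the diets did not overlap. The fitted log2 fold change of the sum was −0.69 with a standard error of 0.20 (adjusted p = 0.217). Without control 6 it was −0.44 (adjusted p = 0.409), and it ran to −0.84 when other libraries were left out in turn. In DESeq2 the adjusted p of the sum was 0.062, so the call made there for Ccl21a was not made for the sum. The part of the sum outside Ccl21a was 25.7% to 36.1% in all libraries.

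**Figure D4:**
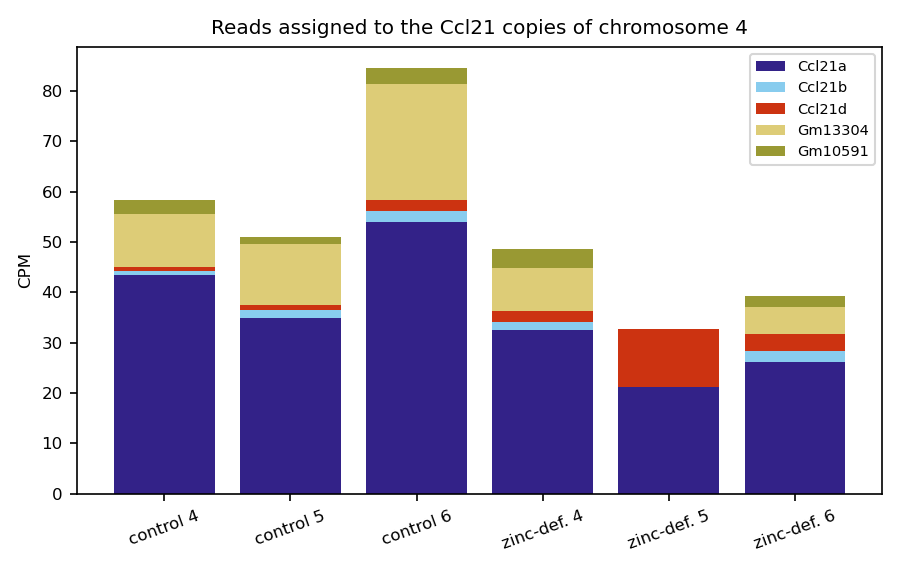
CPM assigned to each of the 5 near-identical Ccl21 copies, stacked, in the 6 libraries. The stack is 51.0 to 84.5 CPM in controls and 32.8 to 48.6 CPM in zinc deficiency, and in zinc-deficient library 5 all that lies outside Ccl21a is assigned to Ccl21d.

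Ccl19, which shares the receptor Ccr7 with Ccl21, had 3.27, 3.02 and 3.86 CPM in controls and 2.21, 1.79 and 2.57 CPM in zinc deficiency. The diets were separate, with a log2 fold change of −0.63 (standard error 0.33, adjusted p = 0.458). Ccr7 itself overlapped, with 1.40, 1.43 and 1.83 CPM against 1.33, 0.809 and 1.47 CPM (log2 fold change −0.37, adjusted p = 0.771, and −0.15 without zinc-deficient 5). Ackr4, which takes up Ccl19, Ccl21 and Ccl25, had 12.6, 11.9 and 10.2 CPM against 6.78, 11.7 and 10.5 CPM and overlapped too (log2 fold change −0.26, adjusted p = 0.683, and −0.055 without zinc-deficient 4), and it lies within the span of Acad11. Lymphatic endothelial markers (Pdpn and Flt4 the most abundant) summed to 96.4 to 107 CPM in controls and 93.3 to 114 CPM in zinc deficiency, with 3 of 5 tested above 0 and none at 0 counts. Dendritic cell markers (led by Cd74 and H2-Ab1) were above 0 for 5 of 10 tested, with a median of −0.076. Their sums, 233 to 322 CPM in controls and 194 to 236 CPM in zinc deficiency, overlapped. Cd74 held most of these sums, at means of 160 and 119 CPM. The part of either cell type in the Ccl21a values was not tested.

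Cxcl16, a membrane-bound chemokine that is shed and attracts Cxcr6-bearing T cells, had 17.8, 12.5 and 14.3 CPM in controls and 10.2, 8.78 and 9.59 CPM in zinc deficiency. All zinc-deficient libraries were below all controls, with a log2 fold change of −0.64 (standard error 0.20, adjusted p = 0.244). Its span overlaps part of Zmynd15, a gene of 281 counts over all libraries. Cxcr6 was at 3.27, 3.02 and 1.96 CPM against 0.442, 2.31 and 2.41 CPM and overlapped (log2 fold change −0.65, adjusted p = 0.649, and −0.21 without zinc-deficient 4). The whole Cxcr6 span lies inside Fyco1, a gene with more counts, so its reads cannot be assigned with certainty.

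Ccl9, a mouse chemokine of myeloid cells and osteoclasts, had 18.9, 6.60 and 19.2 CPM in controls and 8.62, 7.80 and 7.91 CPM in zinc deficiency. Control library 5 lay below all zinc-deficient libraries and the other controls well above them, so the diets overlapped (log2 fold change −0.88, standard error 0.34, adjusted p = 0.325). Without control 5 the log2 fold change was −1.23 (adjusted p = 0.063), without control 4 it was −0.67 (adjusted p = 0.697) and without control 6 it was −0.65 (adjusted p = 0.549). Monocyte and macrophage markers (Lyz2 and C1qa the most abundant, Marco at 0 in all libraries) were above 0 for 6 of 12 tested. They summed to 455, 244 and 523 CPM in the controls and to 314, 336 and 341 CPM in zinc deficiency. Lyz2 alone held 299, 129 and 367 CPM in the controls. Among the controls, the nasal gland and osteoblast marker sums were also lowest in control 5, at 9127 and 8248 CPM. Over all libraries, the nasal gland sum was lowest in zinc-deficient 4 (9089 CPM) and the osteoblast sum in zinc-deficient 6 (4438 CPM). The macrophage sum was lowest in control 5 over all libraries. Osteoblast markers were below 0 for 9 of 9, with sums of 8248 to 14049 against 4438 to 9444 CPM. Col1a1 held most of these sums, at means of 10904 CPM in controls and 6003 CPM in zinc deficiency. The part of macrophages, osteoblasts or osteoclasts in the Ccl9 values was not tested, and no list of osteoclast markers was read.

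Receptors and ligands of monocytes gave smaller differences. Ccr2 had 8.32, 6.44 and 6.87 CPM in controls and 6.11, 11.1 and 8.38 CPM in zinc deficiency (log2 fold change 0.25, adjusted p = 0.733). Its log2 fold change was 0.013 without zinc-deficient 5 and 0.44 without zinc-deficient 4. Its ligand Ccl2 was too low to test, with 11 counts in the 3 controls and 4 in the 3 zinc-deficient libraries. Cx3cl1 had 49.5, 40.0 and 47.3 CPM against 39.5, 37.9 and 42.9 CPM, and Cx3cr1 8.94, 5.65 and 6.41 CPM against 6.11, 6.18 and 4.61 CPM, with log2 fold changes of −0.19 and −0.31 (adjusted p = 0.614 and 0.658). Both overlapped between the diets, and without control 4 the log2 fold changes were −0.12 and −0.094. Cx3cr1 shares its span with several genes, among them Ttc21a, which has many more counts.

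Ccr4, a receptor of regulatory and type 2 helper T cells, was the receptor with the lowest log2 fold change, −2.57 with a standard error of 0.88 (adjusted p = 0.273). It rested on few reads, 12, 12 and 13 counts in controls and 5, 2 and 0 in zinc deficiency, that is 0.933, 0.954 and 0.850 CPM against 0.368, 0.116 and 0 CPM. The diets were separate. T and NK cell markers summed to 4.20 to 12.4 CPM in controls and 5.95 to 10.8 CPM in zinc deficiency, with Trac at 0 in all libraries and 5 of 12 listed genes tested. Ccl22, a ligand of Ccr4 named after its values were seen, had 1.87, 1.19 and 1.31 CPM against 0.295, 1.16 and 0.943 CPM, separate by a small margin (log2 fold change −0.84, adjusted p = 0.563).

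The B cell zone pair was near the limit of these libraries. Cxcl13, which draws B cells into follicles, was not tested and had 8 counts over the controls and 0 over the zinc-deficient libraries, where a count of 0 in a library allows up to 3 counts, or 0.160 to 0.256 CPM. Its receptor Cxcr5 gave 1.09, 0.954 and 0.393 CPM against 0.589, 0.116 and 1.36 CPM and overlapped (log2 fold change −0.20, adjusted p = 0.943, and 0.30 without zinc-deficient 5). Cxcl17 had 9.25, 7.16 and 20.5 CPM in controls and 6.78, 8.32 and 11.7 CPM in zinc deficiency, and control library 6 held the highest value (log2 fold change −0.46, adjusted p = 0.646, and 0.13 without that library). Cxcl17 lies wholly within 4732471J01Rik on the other strand. Ackr1, the Duffy antigen of red cells and venules, had 4.90, 4.45 and 4.06 CPM against 4.27, 4.39 and 3.67 CPM (log2 fold change −0.12, adjusted p = 0.890), and its span overlaps part of Cadm3.

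Among the remaining tested members, chosen after their values were seen, Ccl25 and Cxcl10 had separate diets. Ccl25, the ligand of Ccr9, had 19.8, 23.9 and 20.9 CPM in controls and 16.2, 18.7 and 18.2 CPM in zinc deficiency (log2 fold change −0.28, adjusted p = 0.496). Cxcl10, an interferon-induced ligand of Cxcr3, had 1.09, 0.954 and 1.96 CPM against 0.884, 0.520 and 0.314 CPM (log2 fold change −1.25, adjusted p = 0.405), and its span lies inside Art3, a gene of 214 counts over all libraries. The other tested members overlapped, and their log2 fold changes ran from −1.20 for Cxcl9 to 0.68 for Ccl6.

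Of the 24 members not tested, 19 were ligands and 5 receptors, and Ccl26 and Ccl27b had 0 counts in all libraries. The most counted were Ccl8, with 24 counts in the controls and 40 in zinc deficiency, Xcr1 with 35 and 13, Ccr3 with 15 and 32, Ccl20 with 32 and 14, and Ccl11 with 28 and 8. Ccl11 (eotaxin), Ccl20 and Ccl2 had separate diets with the zinc-deficient libraries below the controls. Cxcl11 had them above, with 4 counts in the controls and 14 in zinc deficiency. Control 5 and zinc-deficient 5 both held 2 counts of Ccl2, so its separation rests on library size. Of the genes tested, 18.9% had separate diets, and this share was not computed for genes left out by the filter. In edgeR without the low-count filter, 22 of the 24 could be fitted, and 0 had an adjusted p under 0.05. An unadjusted p under 0.05 was found for 2, Ccl11 and Cxcl13, both on the lower side in zinc deficiency. Over all genes that share was 12.9% in the main fit, and it was not computed without the filter. Cxcl13 rested on 4, 4 and 0 counts in controls and 0 in each zinc-deficient library. Among counts of 1 to 20, between 64.0% and 72.1% were even numbers, against 50.1% to 51.4% of counts of 100 or more. Whether both reads of a pair were counted is not stated, and if so a low count stands for fewer fragments than its number.

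The family's signalling machinery was described from a list of 40 genes, of which 39 were tested and 0 passed edgeR's adjusted test. Log2 fold changes were above 0 for 26 and below 0 for 13, with a median of 0.20 against −0.0021 over all genes. At an unadjusted p under 0.05 there were 9 on the higher side and 4 on the lower, against 12.9% of all genes. Fgr, a Src-family kinase of myeloid cells, had 4.59, 3.34 and 1.90 CPM in controls and 8.03, 8.32 and 7.49 CPM in zinc deficiency, which were separate (log2 fold change 1.28, standard error 0.32, adjusted p = 0.174). The Rac activator Vav1 had a log2 fold change of 0.81, Rasgrp2, which activates Rap1 in platelets and neutrophils, 0.80, the receptor kinase Grk6, which turns off Cxcr4, 0.41, and Rac2, the Rac form of blood cells, 1.04 (adjusted p from 0.213 to 0.257).

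On the lower side were Grk3, another receptor kinase, at −0.39, Jak2 at −0.36, Cdc42, a GTPase of cell polarity, at −0.35 and Rgs2, which shortens G protein signals, at −0.46 (adjusted p from 0.306 to 0.382). Gnb1, a G protein beta subunit and with Cdc42 the most abundant of the list per length, had a log2 fold change of 0.27. The marrow marker sums given above were read in the same libraries, and the part of those cells in the values of Fgr, Vav1 and Rac2 was not tested. Lyn, a Src-family kinase of leukocytes named after its values were seen, had a log2 fold change of −0.25 (adjusted p = 0.558).

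**Figure D5:**
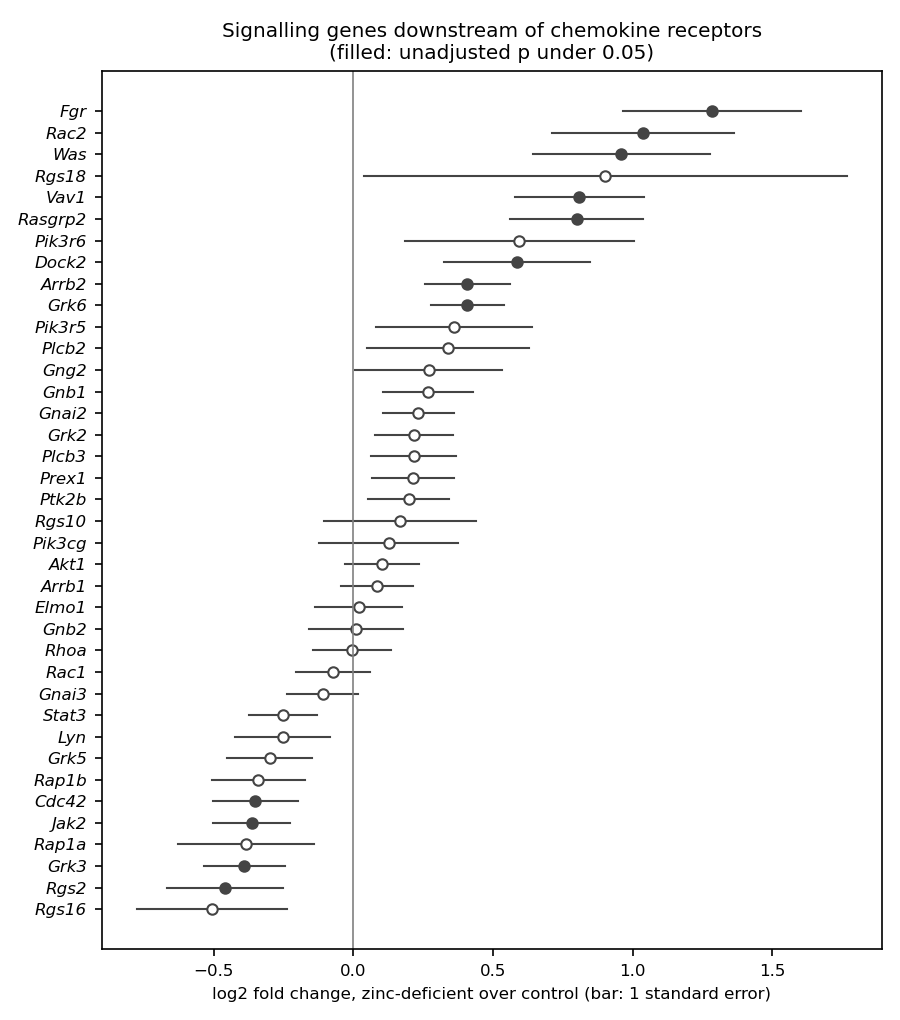
Log2 fold change (zinc-deficient over control) with 1 standard error on each side for 38 of the 39 tested genes of the signalling list, filled where the unadjusted p was under 0.05. Fgr, Rac2, Was and Vav1 are among the genes at the upper end and none of the list passed the adjusted test.

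Cytokines and regulators that induce chemokines were described from a list of 25 genes, of which 15 were tested, 5 above 0 and 10 below, with a median of −0.076. None passed the adjusted test. At an unadjusted p under 0.05 there was 1 of the 15, against 12.9% of all genes tested, namely Il1b, the inflammatory cytokine interleukin 1 beta. It had 3.89, 2.86 and 3.21 CPM in controls and 1.62, 1.16 and 1.26 CPM in zinc deficiency, with separate diets (log2 fold change −1.31, standard error 0.37, adjusted p = 0.208). The most abundant of the list, the NF-kappa B inhibitor Nfkbia and the subunit Rela, had log2 fold changes of −0.0021 and −0.083.

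A further list held 10 genes of the family or close to it that carry other names, and 9 were tested. Pf4, a platelet chemokine, had 4.12, 1.11 and 1.70 CPM in controls and 5.30, 5.89 and 3.88 CPM in zinc deficiency (log2 fold change 1.12, standard error 0.44, adjusted p = 0.328). Control 4 lay above zinc-deficient 6, so the diets overlapped. Megakaryocyte and platelet markers (Itga2b and Gp1ba the most abundant, none at 0) were above 0 for 7 of 7, with sums of 24.8 to 32.8 CPM in controls and 35.9 to 54.9 CPM in zinc deficiency, and their part in the Pf4 values was not tested. Mif and Ppbp, the most abundant of the list per length, had log2 fold changes of 0.43 and 0.44.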

How the data were processed

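Libraries were made from 500 ng of total RNA with an rRNA depletion kit and the NEBNext Ultra II kit, per the labels' protocols. The authors deposited whole-number counts per gene, named total counts per the file headers, and RPKM values per library in the same table, which also holds the authors' fold changes, p-values and FDR values. A further 12 deposited columns were not used. No source used here gives a genome build, aligner, read counter or strand setting, and 20 of the 61 members overlap another listed gene. Coordinates are those of the deposited table.

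The main test on the counts was run in edgeR 4.0.16 under R 4.3.3 (TMM, filterByExpr, robust quasi-likelihood test, diet as the only term, two-sided, Benjamini-Hochberg over all 18427 genes tested). Intervals are 95% and cover the spread between libraries, and the 3-count floor reflects counting error alone. Alternatives were DESeq2 1.42.0, limma 3.58.1 (voom, and log2(RPKM + 1) or log2(RPKM + 0.1) with RPKM of at least 0.1), other scalings and filters, the replicate number as a block and leaving out each library. Halving each count, summing the Ccl21 copies and leaving Ltf out of a marker sum were added after seeing the data. Libraries within a diet differed by more than sampling noise. The edgeR step was tested on simulated data.

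The members and lists were chosen with earlier results of these data known. Described in full were members with an adjusted or unadjusted p under 0.05, the 8 ligands and 8 receptors of highest mean RPKM, and fixed ligand and receptor groups. Of the pathway lists, up to 6 genes per direction by p and the 2 most abundant were named, and of marker lists the 2 most abundant. One gene of the signalling list, included in its counts and median, is not reported here. Other genes were named after their values were seen.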

Additional observations from a re-analysis of the deposited data

How the results depend on the processing

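The count of members past the adjusted test was 0 in the main analysis, 4 in DESeq2 and 1 without the low-count filter, and 0 in the other alternatives, leaving out each library included. The count at an unadjusted p under 0.05 stayed between 6 and 10. The ligand median of −0.54 became −0.30 with at least 100 counts, −0.28 with each count halved, −0.43 on log2(RPKM + 0.1) and −0.14 on log2(RPKM + 1), where the median over all genes shifted to 0.10 and 0.056. It ran from −0.68 without zinc-deficient 6 to −0.29 without control 6, and was −0.38 without zinc-deficient 4. The receptor median was −0.029 on log2(RPKM + 1), and the signalling median 0.30 on log2(RPKM + 0.1). Of 23 named members tested, 20 kept their direction in each alternative. Leaving out 1 library at a time, Cxcl17 ran from −0.74 to 0.13 (without control 6), Cxcl5 from −0.089 (without zinc-deficient 4) to 0.21, and Cxcr5 from −1.22 to 0.30 (without zinc-deficient 5), with 0.075 without control 4. The cause of these changes was not tested.

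With the replicate number as a block, 0 members passed, 8 had an unadjusted p under 0.05, and the ligand and receptor medians were −0.54 and −0.28. Same-numbered libraries correlated at −0.056, 0.20 and 0.086 in their deviations from the group means, not each library correlated best with its own number, and nothing in the labels pairs them. Low counts limit the 24 members left out by the filter.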
